A study of Mus musculus with 6 samples.

Results

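Scavenger receptors and C-type lectins of the macrophage surface were compared between LPS-stimulated RAW 264.7 cells with and without 15(S)-HETE (15-HETE). The 10 genes were listed by name for what their products bind. They are the mannose receptor Mrc1, the scavenger receptors Msr1, Marco, Cd36, Scarb1 and Olr1, the endosomal glycoprotein Cd68, and the lectins Clec7a, Clec4e and Clec4d. A probe was joined to 9 of these 10 genes, with 1 probe each, among 13840 genes with a probe of 1 symbol and 33012 probes in all. No probe was joined to Cd68, whose transcript level was not analysed here.

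RAW 264.7 is an established mouse macrophage-like line. The first group, 15-HETE + LPS, received 40 μM 15-HETE, a hydroxylated product of arachidonic acid, followed at once by LPS, a bacterial endotoxin, at 1 μg/mL. The other group, LPS, received 1 μg/mL LPS without 15-HETE. No vehicle for 15-HETE is named in the sources used here, so the effects of 15-HETE and of any vehicle cannot be told apart. Both groups thus carried LPS for 24 h, and unstimulated cells were not analysed here. Each group held 3 biological replicates, each pooled from 6 wells. Labelled RNA copies (cRNA) made from the total RNA of each replicate were hybridized to a mouse genome survey array, which reads 1 chemiluminescent signal per probe.

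Scavenger receptors take up modified lipoproteins, dead cells and microbial surfaces, and the cholesterol and fatty acids that enter a macrophage in this way can be stored in lipid droplets. C-type lectin receptors bind sugars or glycolipids. Some of them, such as the mannose receptor, mainly carry their ligand into endosomes, whereas others, such as dectin-1 and Mincle, signal through the kinase Syk and the adaptor Card9. LPS is known to change the amounts of many of these receptors in macrophages.

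Values are linear intensities that the authors had quantile normalized, so that all samples share a median of 837 and run between 46.2 and 3047298. Their log2 was compared by limma, p-values were adjusted over all 33012 probes after Benjamini and Hochberg, and calls needed an adjusted p under 0.05. A positive log2 fold change means a higher intensity in 15-HETE + LPS than in LPS, and signals of different probes were not set against each other. Across probes, log2 values correlated at 0.955 to 0.962 within 15-HETE + LPS, at 0.972 to 0.979 within LPS and at 0.943 to 0.962 between the groups. LPS replicate 1 was the sample standing apart from the other 2 of its group at 47.3% of probes, against 27% for LPS replicate 2 and 25.7% for LPS replicate 3. In 15-HETE + LPS these shares were 37.3% for replicate 1, 31.5% for replicate 2 and 31.2% for replicate 3. At each probe 1 of the 3 samples of a group stands apart in this sense, so equal shares would mean that none did so more often. Of the macrophage markers, 9 of 9 measured lay above the array median, and their summed intensity was 3933090 to 4095230 in 15-HETE + LPS and 2753930 to 3462060 in LPS. Lyz2 made up most of these sums, with means of 2573370 in 15-HETE + LPS and 2119350 in LPS. Of the 9 macrophage markers, 8 had a log2 fold change above 0 and 1, Laptm5, below 0. Groups did not overlap for 5 of those 8, Lyz2 among them, nor for Laptm5. Laptm5 had -0.90 on the log2 scale (adjusted p = 0.0813 from limma). With the intensity trend, in which the prior variance follows intensity, its adjusted p was 0.00595. That fit also called Fcgr3, in the opposite direction (0.62 on the log2 scale, adjusted p = 0.0344, against 0.171 from limma). The fibroblast markers, of which 4 of 6 lay above the median, summed to 13120.8 to 15431.2 in 15-HETE + LPS and 22049.3 to 27746.5 in LPS, and most of that gap was Dcn, with means of 5822 in 15-HETE + LPS and 14584 in LPS. Epithelial markers, of which 1 of 4 lay above the median, summed to 2318 to 3709 in 15-HETE + LPS and 4311 to 5079 in LPS. The brightest of them, Krt8, had means of 1735 in 15-HETE + LPS and 3474 in LPS. Log2 fold changes were above 0 for 2 of these 4 markers and below 0 for 2. Cdh1 was higher in every treated sample (0.61 on the log2 scale, adjusted p = 0.182 from limma). The part of these marker levels in the receptor results was not tested. Which arrays were hybridized together is not named, so array sets and treatment cannot be told apart.

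Of the 9 receptors, 1 was higher and 0 were lower after 15-HETE (limma), where 0.509% of all probes were called higher and 0.442% lower. The 1 was Mrc1. At an unadjusted p under 0.05, 2 receptors were higher, Mrc1 and Clec7a, and 1 was lower, Olr1, where 8.62% of all probes were higher and 11% lower at that limit, 19.6% in either direction. The groups did not overlap for Mrc1 and Clec7a, which were higher in every 15-HETE + LPS sample, nor for Olr1 and Clec4e, which were lower in every one. Over the array, such separation was found for 13.7% of probes higher and 16.3% lower. Log2 fold changes were above 0 for 5 receptors and below 0 for 4, and their median was 0.16, beside 0.01 over all probes. With the intensity trend, the counts were again 1 higher and 0 lower, with 3.87% of probes called higher and 4.96% lower. Among all genes read at their brightest probe, as the receptors were, limma called 0.759% higher and 0.368% lower. The groups did not overlap for 17.5% of these genes higher and 17.7% lower. The intensity trend called 5.85% of them higher and 5.33% lower.

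**Figure D1:**
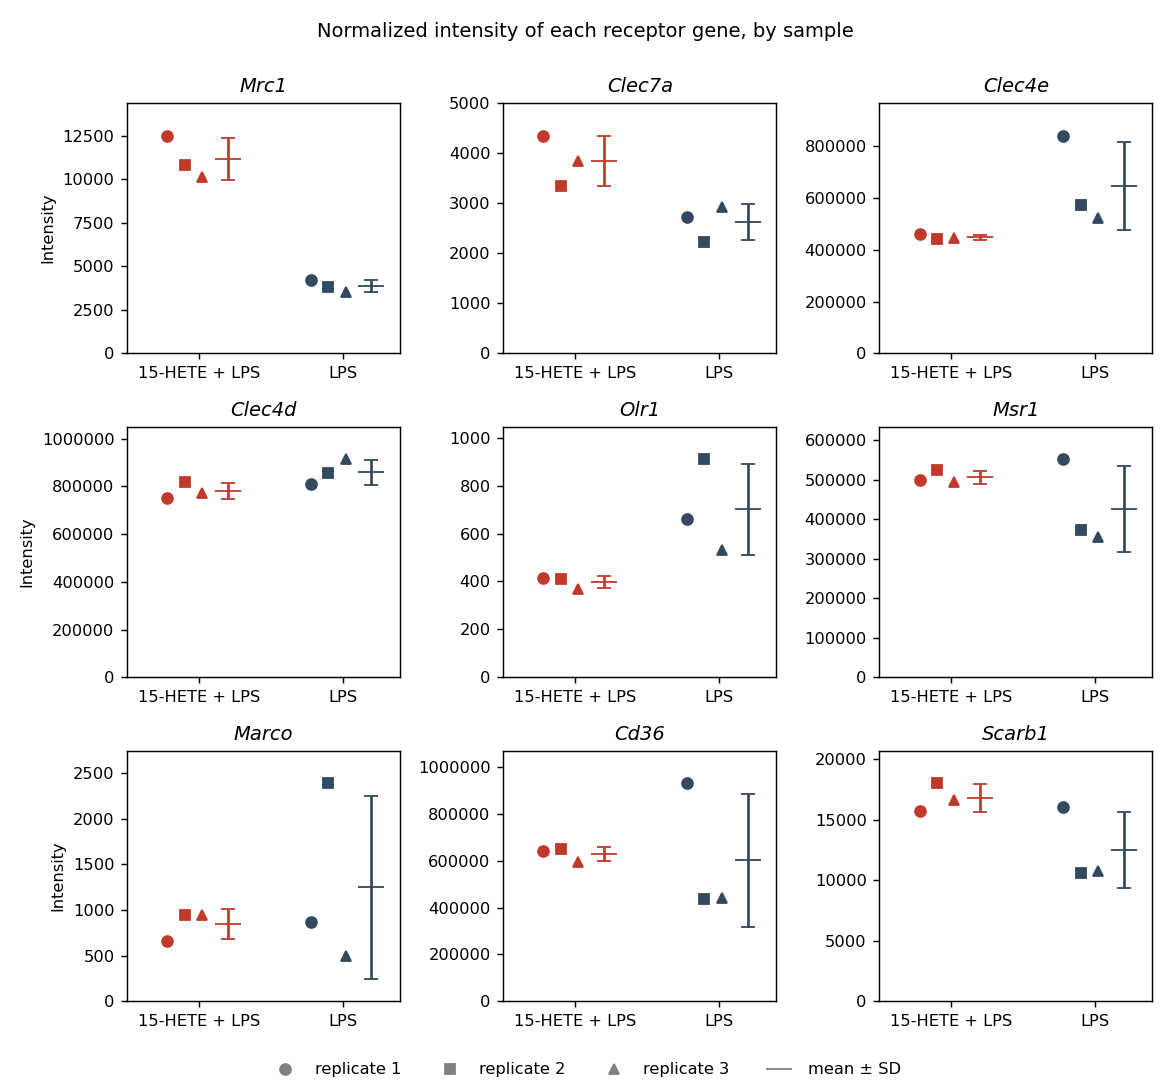
Normalized intensity (linear axis from 0) of the 9 receptor genes in each sample, 15-HETE + LPS in red at the left and LPS in dark blue at the right of each panel; symbols are replicates and bars the mean ± SD (n = 3). The groups did not overlap for Mrc1, Clec7a, Clec4e and Olr1, and for Mrc1, Msr1, Cd36, Scarb1 and Clec4e LPS replicate 1 was the highest sample of its group.

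Mrc1 encodes the mannose receptor CD206, an endocytic lectin for mannose- and fucose-bearing glycans that is widely used as a marker of alternatively activated macrophages. Its intensity (probe 331550) was 12513.5, 10845.5 and 10148.1 in 15-HETE + LPS, against 4216.85, 3838.49 and 3529.33 in LPS. Every treated sample thus lay above every LPS sample. The means were 11169 ± 1215 in 15-HETE + LPS and 3862 ± 344 in LPS (SD, n = 3 each), a 2.89-fold rise. The log2 fold change was 1.53 (standard error 0.18, 95% interval 1.08 to 1.98, adjusted p = 0.0395 from limma), above that of 98.8% of probes. The study lists this gene among its changed genes from the same samples, so the rise is not independent of that listing.

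With any 1 sample left out the log2 fold change of Mrc1 ran from 1.45 to 1.60. Limma then called 0 probes of the whole array, Mrc1 included, in each of the 6 fits, whereas with the intensity trend Mrc1 was called in 6 of 6 (adjusted p between 5.88e-05 and 0.0120). The methods' t-test gave an adjusted p of 0.0839 over all probes and of 0.0216 over the probes past its fold rule.

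The promoter of Mrc1 is shown because its transcript was the only receptor called, and those of Olr1 and Clec7a because these neighbouring genes lay on opposite sides of 0, a choice made after the values were seen. Sequences are from RefSeq (GRCm38.p6), 300 bases around the start site, at chr2:14229164-14229463 (plus strand) for Mrc1, chr6:129507116-129507415 (minus strand) for Olr1 and chr6:129472730-129473029 (minus strand) for Clec7a. Capitals mark matches to the motifs named below.
Mrc1: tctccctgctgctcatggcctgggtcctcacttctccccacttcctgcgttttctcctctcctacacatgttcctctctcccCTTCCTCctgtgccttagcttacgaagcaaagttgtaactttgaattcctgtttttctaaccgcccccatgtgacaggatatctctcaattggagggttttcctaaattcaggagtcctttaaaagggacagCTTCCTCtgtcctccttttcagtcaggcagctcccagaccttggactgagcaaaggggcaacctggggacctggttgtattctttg
Olr1: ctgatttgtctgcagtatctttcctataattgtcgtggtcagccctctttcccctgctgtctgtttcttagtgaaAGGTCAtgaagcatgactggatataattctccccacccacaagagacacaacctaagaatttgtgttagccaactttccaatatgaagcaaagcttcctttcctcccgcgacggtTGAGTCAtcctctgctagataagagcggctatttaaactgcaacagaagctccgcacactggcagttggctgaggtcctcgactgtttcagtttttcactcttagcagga
Clec7a: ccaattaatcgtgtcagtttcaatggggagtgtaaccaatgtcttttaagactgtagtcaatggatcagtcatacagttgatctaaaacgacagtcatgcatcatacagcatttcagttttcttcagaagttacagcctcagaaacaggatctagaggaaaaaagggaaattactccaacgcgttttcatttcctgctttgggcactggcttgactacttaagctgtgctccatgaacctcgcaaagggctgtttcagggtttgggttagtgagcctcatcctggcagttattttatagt

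Promoters were found for 8 of the 10 genes and searched on both strands. The letters were GAGGAAG for the core bound by the myeloid factor PU.1 (in 13.6% of all promoters of this length), TGANTCA for AP-1 (7.81%), TTGCNNAA for C/EBP (10.8%), AGGTCA for the hexamer of nuclear receptors (16.3%), TGACNNNGC for the antioxidant response core (12.4%), and the PPAR-RXR element built of a pair of such hexamers (0.0396%). The AP-1 and antioxidant patterns can overlap each other. In Mrc1 the PU.1 letters stood on the opposite strand, as CTTCCTC, 168 and 36 bases before the start. Olr1 held this hexamer 175 bases and AP-1 letters 60 bases before its start, and Clec7a held none of these letters. Elsewhere, PU.1 letters stood 146 bases before the start of Marco and 241 bases before that of Clec4d, C/EBP letters 66 bases before that of Clec4e, and the hexamer 228 bases before that of Cd36. Cd68 held AP-1 letters at 149 and 24 bases and C/EBP letters at 43 bases. These matches are letters in a window and not measured binding.

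Clec7a encodes dectin-1, the receptor for fungal β-glucan. Its intensity (probe 324475) was 4353.78, 3351.93 and 3834.93 in 15-HETE + LPS, against 2726.19, 2216.98 and 2930.95 in LPS. The groups did not overlap, although the lowest treated sample lay close to the highest LPS sample. Clec7a did not pass, at 0.55 on the log2 scale (standard error 0.21, 95% interval 0.05 to 1.05) and an adjusted p of 0.217 from limma.

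Clec4e encodes Mincle, which binds mycobacterial trehalose dimycolate and signals through the Fc receptor γ chain. Its intensity (probe 671981) was 459819, 442787 and 443886 in 15-HETE + LPS, against 841206, 572806 and 523293 in LPS. The treated samples lay close together and below every LPS sample, among which replicate 1 was by far the highest. Limma put the log2 fold change of Clec4e at -0.49 (standard error 0.23, 95% interval -1.06 to 0.07, adjusted p = 0.304 from limma).

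Clec4d, the neighbouring gene on chromosome 6, encodes MCL, a lectin that pairs with Mincle. Its intensity (probe 859951) was 751380, 817985 and 770879 in 15-HETE + LPS, against 809892, 854861 and 913094 in LPS. The groups overlapped, with a log2 fold change of -0.14 (95% interval -0.54 to 0.27, adjusted p = 0.689 from limma). Among the 9 receptors this interval was the narrowest.

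Olr1 encodes LOX-1, a receptor for oxidized low-density lipoprotein that has a C-type lectin fold and lies beside Clec7a on chromosome 6. Its intensity (probe 314048) was 412.972, 409.265 and 367.181 in 15-HETE + LPS, against 660.227, 909.014 and 532.493 in LPS. Every treated sample lay below every LPS sample, and the means of 396 ± 25.4 in 15-HETE + LPS and 701 ± 191 in LPS (SD, n = 3 each) were both under the sample median of 837. Limma put the log2 fold change of Olr1 at -0.79 (standard error 0.24, 95% interval -1.38 to -0.20, adjusted p = 0.158 from limma). It did not pass. With the intensity trend, which allows more variance to dim probes, its adjusted p was 0.283.

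**Figure D2:**
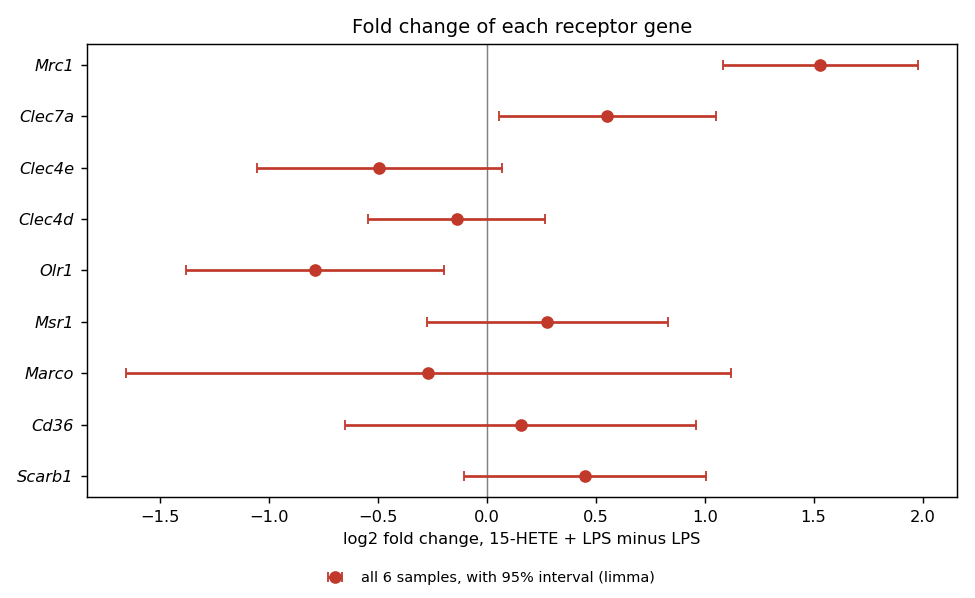
Log2 fold change (15-HETE + LPS minus LPS) of each receptor gene over all 6 samples, with the 95% interval from limma. The intervals of Mrc1, Clec7a and Olr1 leave out 0, before adjustment over all probes, and that of Marco is the widest, at -1.65 to 1.12.

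Msr1 encodes scavenger receptor A, which takes up acetylated and oxidized lipoproteins. Its intensity (probe 475561) was 498631, 523293 and 494465 in 15-HETE + LPS, against 550778, 371471 and 354315 in LPS. The treated samples lay above LPS replicates 2 and 3 and below replicate 1. For Msr1 the log2 fold change was 0.28 (standard error 0.23, 95% interval -0.28 to 0.83, adjusted p = 0.545 from limma).

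Cd36 encodes a receptor for long-chain fatty acids and oxidized lipoproteins. Its intensity (probe 924625) was 640792, 652928 and 595872 in 15-HETE + LPS, against 931441, 438321 and 440904 in LPS. As for Msr1, LPS replicate 1 stood above all treated samples and the other 2 below them. For Cd36 the log2 fold change was 0.16 (standard error 0.33, 95% interval -0.65 to 0.96, adjusted p = 0.830 from limma), and it was -0.03 without LPS replicate 2, -0.02 without LPS replicate 3 and 0.52 without LPS replicate 1.

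Scarb1 encodes SR-BI, the receptor through which high-density lipoprotein exchanges cholesterol with cells. Its intensity (probe 856472) was 15728.5, 17990.8 and 16592.7 in 15-HETE + LPS, against 16076.6, 10609.1 and 10743.4 in LPS. Again only LPS replicate 1 reached the range of the treated samples. For Scarb1 the log2 fold change was 0.45 (standard error 0.23, 95% interval -0.10 to 1.01, adjusted p = 0.336 from limma).

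Marco encodes a class A scavenger receptor for bacteria and inhaled particles. Its intensity (probe 308635) was 659.115, 943.397 and 943.544 in 15-HETE + LPS, against 865.317, 2385.61 and 495.967 in LPS. The treated samples lay within the range of LPS, which LPS replicate 2 set at its upper end. For Marco the log2 fold change was -0.27 (standard error 0.57, 95% interval -1.65 to 1.12, adjusted p = 0.831 from limma), and without LPS replicate 2 it was 0.35.

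For 8 of the 9 receptors the SD of log2 intensity was smaller in 15-HETE + LPS than in LPS, with a median SD of 0.09 in 15-HETE + LPS and 0.35 in LPS. Among probes above the array median, where 8 of the 9 receptors lay, the SD was larger in LPS at 59.9%, with medians of 0.15 in 15-HETE + LPS and 0.24 in LPS. Over all probes it was larger in LPS at 48.8%, with medians of 0.35 in 15-HETE + LPS and 0.32 in LPS. Because LPS replicate 1 stood apart at several receptors, the fit was repeated without it, with the intensity trend, a choice made after the values were seen. Without it, 4 receptors were higher, Mrc1, Msr1, Cd36 and Scarb1, and 1 was lower, Clec4e. In the same fit 7.86% of all probes were called higher and 7.69% lower. The log2 fold changes were then 0.48 for Msr1 (adjusted p = 0.000499 from limma with the intensity trend) and 0.52 for Cd36 (adjusted p = 0.000417). In that fit Scarb1 had 0.65 (adjusted p = 0.00135) and Clec4e had -0.29 (adjusted p = 0.0109). That fit set 3 treated samples against LPS replicates 2 and 3 alone. These calls rest on leaving out that 1 sample and on the intensity trend. Without the trend, limma on the same samples called 0 receptors and 0 probes of the array. Its adjusted p was 0.150 for Msr1, 0.140 for Cd36, 0.112 for Scarb1 and 0.308 for Clec4e.

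**Figure D3:**
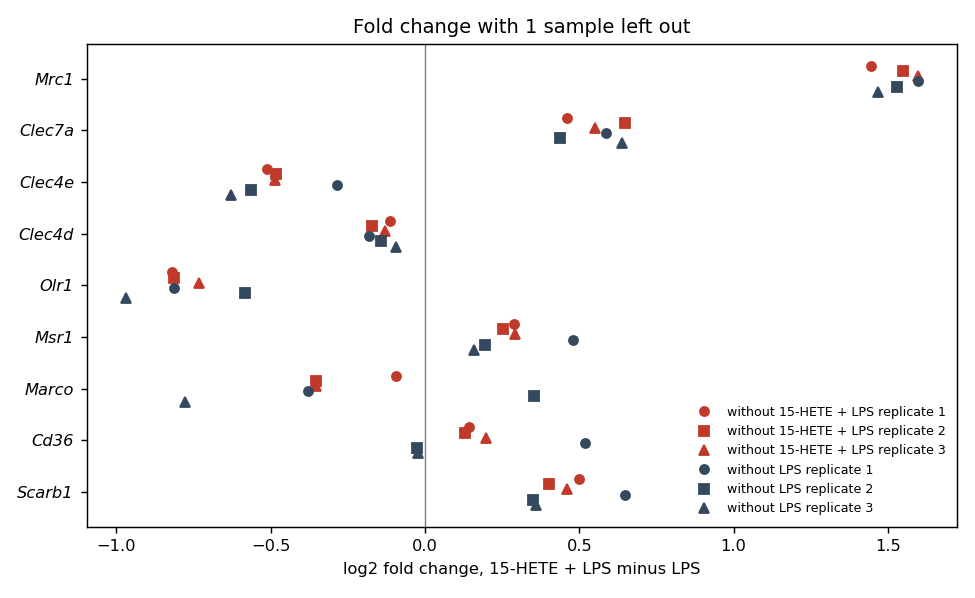
Log2 fold change (15-HETE + LPS minus LPS) of each receptor gene with 1 of the 6 samples left out, red for a 15-HETE + LPS sample and dark blue for an LPS sample, with the symbol giving its replicate number. Mrc1 stays between 1.45 and 1.60, whereas Marco runs from -0.78 to 0.35 and Cd36 from -0.03 to 0.52.

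Related receptors were listed by family. Of 29 other C-type lectin receptors 23 were measured, and 1 was higher and 1 lower, with a median log2 fold change of 0.09. Over all probes limma called 0.509% higher and 0.442% lower. Clec10a, the macrophage galactose lectin, had 34659, 38398.8 and 37125.3 in 15-HETE + LPS, against 13252.6, 13975.8 and 16661.6 in LPS, and rose by 1.33 on the log2 scale (standard error 0.18, adjusted p = 0.0472 from limma). Clec4a1, of the Clec4a group of lectins, had 2898.61, 3540.62 and 2791.76 in 15-HETE + LPS, against 7156.53, 8350.43 and 8706.89 in LPS, and fell by 1.39 on the log2 scale (standard error 0.19, adjusted p = 0.0480 from limma). In both genes the groups did not overlap. Neither was called with the robust prior or the methods' t-test. Ly75, an endocytic relative of the mannose receptor, did not pass (-1.86, adjusted p = 0.0801 from limma), and all its values lay under the sample median of 837. With the intensity trend 2 of these lectins were higher and 3 lower, among them Ly75 (adjusted p = 0.0363). In that fit 3.87% of all probes were called higher and 4.96% lower.

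Of 16 other scavenger receptors 15 were measured, and 0 were higher and 0 lower by limma, with 3 at an unadjusted p under 0.05, a share close to the 19.6% of all probes, and a median log2 fold change of -0.24. These 3 were Cd5l, a secreted scavenger protein of macrophages (-1.26, adjusted p = 0.0819), Lrp1, a large endocytic receptor (-1.01, adjusted p = 0.111), and Scarb2, a lysosomal membrane protein of the Cd36 family (0.58, adjusted p = 0.172). With the intensity trend Scarb2 was higher (adjusted p = 0.0263) and Lrp1 lower (adjusted p = 0.0119). A probe that the study assigns to Scarb2, and to which the annotation does not join a single gene symbol, rose by 1.33 on the log2 scale (standard error 0.18, adjusted p = 0.0454 from limma).

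Downstream of the lectins lie Syk, Card9 and their regulators. Of 14 such genes 8 were measured, Syk among them but not Card9 or the Fc receptor γ chain. Of these 8, 0 were called in either direction by limma, by limma with the intensity trend or by the methods' t-test. At an unadjusted p under 0.05 there was 1. That 1 was Inpp5d, the inositol phosphatase SHIP1 (0.81, adjusted p = 0.221). Plcg2, a phospholipase that acts after Syk, followed with -0.47 on the log2 scale (adjusted p = 0.286) and Ptpn6, the phosphatase SHP-1, with -0.43 (adjusted p = 0.313). The median of the list was -0.36, with 2 genes above 0 and 6 below.

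Lipid that scavenger receptors bring in is stored, hydrolysed or exported. Of 14 genes for these steps 11 were measured, and 1 was higher and 0 lower, with a median log2 fold change of 0.18. Limma called 0.509% of all probes higher and 0.442% lower. Plin2, which coats lipid droplets, had 740622, 658705 and 710178 in 15-HETE + LPS, against 227730, 162110 and 152104 in LPS. Its groups lay far apart, and Plin2 rose by 1.98 on the log2 scale (standard error 0.22, adjusted p = 0.0344 from limma). The methods' t-test, as rerun here without the authors' filter, did not call it over all probes or over those past its fold rule. The study itself names this gene, as Adfp, among transcripts elevated by 15-HETE in the same samples. Neither Nceh1, a hydrolase of stored cholesteryl esters (1.03, adjusted p = 0.0618), nor Fabp4, a fatty acid carrier (0.93, adjusted p = 0.0869), passed. With the intensity trend all 3 of these genes were higher, in a fit that called 3.87% of all probes higher and 4.96% lower. The exporter Abca1 had 0.75 (adjusted p = 0.251) and Abcg1 had 0.14 (adjusted p = 0.742), and neither passed.

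**Figure D4:**
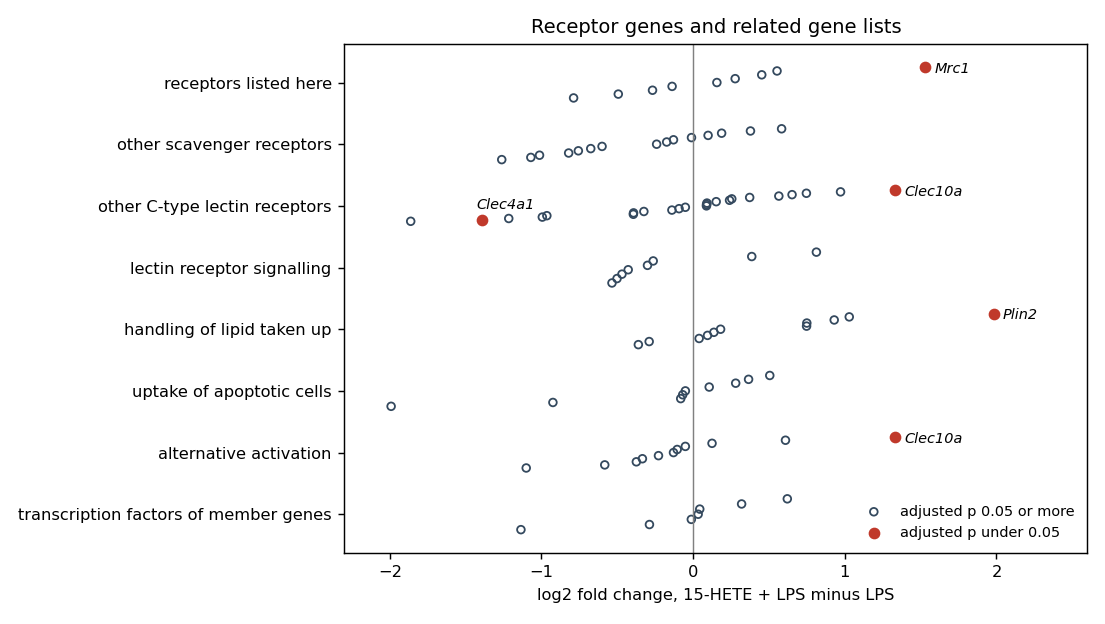
Log2 fold change (15-HETE + LPS minus LPS) of each measured gene, by list, with the 9 receptors at the top; filled points had an adjusted p under 0.05 from limma and open points did not. The filled points are Mrc1, Clec10a (in 2 lists), Clec4a1 and Plin2.

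Receptors and bridging proteins for apoptotic cells numbered 17, of which 9 were measured and 0 were called by limma, by limma with the intensity trend or by the methods' t-test, with 1 at an unadjusted p under 0.05. That 1 was Gulp1, an engulfment adaptor (-1.99, adjusted p = 0.141). Its intensity was 309, 198 and 216 in 15-HETE + LPS, against 1216, 384 and 1781 in LPS. Pros1, which bridges apoptotic cells to receptor kinases, had -0.92 (adjusted p = 0.356) and the integrin chain Itgb5 had 0.28 (adjusted p = 0.501). Of 11 other genes of alternative activation, 11 were measured, and 1 was higher, the lectin Clec10a already described, and 0 were lower. The shares of all probes called by limma were 0.509% higher and 0.442% lower. Arg1, the arginase that marks this state, had 233, 564 and 157 in 15-HETE + LPS, against 605, 545 and 616 in LPS. All of these values lay under the sample median of 837. These groups overlapped, with a log2 fold change of -1.10 (adjusted p = 0.265 from limma), and the factor Klf4 had -0.33 (adjusted p = 0.348). The median of this list was -0.13, with 3 genes above 0 and 8 below.

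Transcription factors known to act on these receptor genes numbered 10, of which 7 were measured. By limma, by limma with the intensity trend and by the methods' t-test 0 were called, with 0 at an unadjusted p under 0.05. Pparg, the lipid-activated nuclear receptor, had 293, 883 and 409 in 15-HETE + LPS, against 1678, 707 and 945 in LPS, and the groups overlapped (log2 fold change -1.14, adjusted p = 0.282 from limma). Spi1, which encodes PU.1, had 0.32 (adjusted p = 0.378). Cebpb had -0.29 (adjusted p = 0.384) at its brightest probe and 0.32 at another.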

How the data were processed

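Total RNA of RAW 264.7 cells was copied to cDNA, from which cRNA labelled with digoxigenin was made and hybridized to ABI mouse genome survey arrays. The deposited values are linear intensities that the authors made with the analyzer's software and quantile normalized; the signal-to-noise and flag filter of the methods is not part of that table, so every probe was tested. Background correction and array batches are not given in the sources used here. Replicates were named biological replicates, and the number of arrays limits the precision.

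Intensities were turned to log2 and fitted by lmFit and eBayes of limma 3.58.1 (default prior, two-sided) under R 4.3.3, with statmod 1.5.0 for robust fits, and p-values were adjusted after Benjamini and Hochberg over 33012 probes. The platform annotation named 1 gene at 14411 probes, more than 1 at 247 and none at 18354, and 14402 of the 14411 were found in RefSeq by gene id. A gene was read at its probe with the highest mean. Named were the 10 receptors and, in each list, the genes called or the 3 with the lowest p; Clec10a recurs in its second list, Abca1 and Abcg1 were added after their values were seen. Receptors and lists were chosen with earlier results of these data known, and no test over a list was made. Alternatives were the intensity trend, a robust prior, the methods' t-test (also over the probes past its 1.8-fold rule alone, at 0.025), cyclic loess, 75th percentile scaling, an offset of 50, filters on dim probes, probe means, a replicate block and leaving out each sample. The methods' t-test was rerun on log2 values of every probe, without the authors' signal-to-noise and flag filter. The fits were tested on simulated data.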

Additional observations from a re-analysis of the deposited data

How the results depend on the processing

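The count of receptors called higher was 1 and of receptors called lower 0 with the intensity trend, a robust prior, the methods' t-test over probes past its fold rule, cyclic loess, 75th percentile scaling, an offset of 50, both filters on dim probes and probe means. The methods' t-test over all probes called 0 receptors higher, as it called 0 probes of the array. No pairing of same-numbered samples is named in the sources used here. Their deviations from the group means correlated at -0.02, 0.00 and 0.02, which cannot decide whether they were prepared together. With the replicate number as a block 0 receptors and 0 probes of the array were called, and Mrc1 kept 1.53 (adjusted p = 0.207). With each sample left out, the highest counts, 4 receptors higher and 1 lower, were those without LPS replicate 1 under the intensity trend. Over all such fits, with and without the trend, counts ran from 0 to 4 higher and from 0 to 1 lower. Marco then ran from -0.78 to 0.35 and Cd36 from -0.026 (without LPS replicate 2) and -0.022 (without LPS replicate 3) to 0.52, with the intensity trend as without it, while the other 7 receptors kept their direction. Olr1 and Marco lay close to or below the sample median, where replicate spread on the log2 scale is wider than for bright probes.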
